A study of Homo sapiens with 27 samples.

Results

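The effect of transfection with NLS-GFP on gene expression in HT1080 cells was measured against untreated HT1080 cells. The comparison covers the 3 arrays of NLS-GFP transfected cells (replicates 1 to 3) and the 4 arrays of untreated cells (replicates 1 to 4), chosen by their sample titles, which makes 7 of the 27 arrays of the series. HT1080 is an established human fibrosarcoma line with a fibroblast-like shape. NLS-GFP is green fluorescent protein carrying a nuclear localization signal, so that it is imported into the nucleoplasm, and it was introduced by transfection. In the rest of the series, GFP fusions of the nuclear envelope transmembrane proteins NET29, NET39 and NET47 were expressed. They were present either at full length in Geneticin-selected stable lines (11 arrays) or as soluble nucleoplasmic fragments in transfected cells (9 arrays). The study set both the full-length proteins and the fragments against the NLS-GFP cells, and its methods name untransfected cells as a reference too. The titles of the fragment samples say transfected without saying whether this was transient, and a legend of the study calls these cells stable. The sample titles and the study's methods say only that the NLS-GFP cells were transfected. The untreated cells are untransfected per the study's methods, which do not mention reagent given without plasmid. The share of cells that took up the plasmid and the time between transfection and harvest are not given either, and GFP, a jellyfish protein, was not measured by the human gene probes analysed here. NLS-GFP, the plasmid and the transfection procedure therefore come together in this contrast and cannot be told apart. In such bulk RNA, a lower level cannot be assigned to less RNA per cell or to fewer cells that express the gene.

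Transfected plasmid DNA can be recognised in the cytosol by DNA sensors, of which cGAS acts through STING to induce interferon-stimulated genes, and lipid-based reagents load cells with foreign lipid that passes through endosomes and lysosomes. A GFP with a nuclear localization signal is carried through the nuclear pores by importins. GFP itself has no natural partner in human cells and is widely used as an inert tag, so that NLS-GFP cells are a common reference for nuclear proteins tagged with GFP.

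RNA was hybridized to Illumina HumanHT-12 v3 bead arrays with 48803 probes, and 18665 genes were each represented by their brightest probe. Levels below are log2 intensities after background correction and quantile normalization, and a difference is always NLS-GFP minus untreated, with its standard error (SE) from limma and with p adjusted by the Benjamini-Hochberg method over all probes. A gene was said to pass the threshold when its adjusted p was under 0.05 and its difference was beyond 0.5. The cells had a mesenchymal profile: 8 of 12 fibroblast markers, among them VIM, SPARC and CD44, were above background on all 4 untreated arrays. On all 3 NLS-GFP arrays 7 of them were above it, and THY1 was above it on none of the 7 arrays. The summed intensity of these markers was 49400 to 52600 on the NLS-GFP arrays and 53400 to 60200 on the untreated arrays, so that the NLS-GFP arrays were lower without overlap. The median difference of these markers was −0.192, beside 0.00248 over all genes. Of the markers of other cell types, EPCAM, PTPRC, HBB, CDH5 and 7 of the 8 skeletal muscle markers were never above background, whereas KRT8, KRT18, CD68, CSF1R, SNAP25, TUBB3, SERPINA1 and LEP were above it on all 7 arrays, PECAM1 and TEK on 6 of them, and CD14 on the 3 NLS-GFP arrays and no untreated array. The summed intensity of the 9 epithelial markers was 5340 to 5580 on the NLS-GFP arrays and 4210 to 7250 on the untreated arrays, that of the 8 blood and immune markers was 2190 to 2360 on the NLS-GFP arrays and 1810 to 2510 on the untreated arrays, and that of the 5 neuronal markers was 3550 to 5190 on the NLS-GFP arrays and 4390 to 6830 on the untreated arrays. The ranges of the epithelial, blood and immune, and neuronal markers overlapped, and the part of such markers in the results was not tested.

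The array labelled untreated replicate 4 stood apart from the other untreated arrays, and every main result is therefore given with and without it. A principal component analysis of all 27 arrays placed the NLS-GFP arrays at 25.18, 20.58 and 11.02 on its leading axis (32.1% of the variance), and the untreated arrays at −13.33, −8.904, −8.948 and 23.05. Untreated replicate 4 thus lay inside the range of the NLS-GFP arrays, while untreated replicates 1 to 3 lay on the other side of zero. Over all probes, untreated replicate 4 correlated on average at 0.9864 with the NLS-GFP arrays and at 0.9789 with untreated replicates 1 to 3. Untreated replicate 2 stood apart on the second component, at 43.8. Before normalization, the median intensities were 73.3, 68.5 and 72.1 on the NLS-GFP arrays, against 55.1, 51.2, 51.5 and 58.9 on the untreated arrays, so that the groups did not overlap. The part of this brightness difference in the results was not tested, and the sources used here do not state the hybridization batch of each array.

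**Figure D1:**
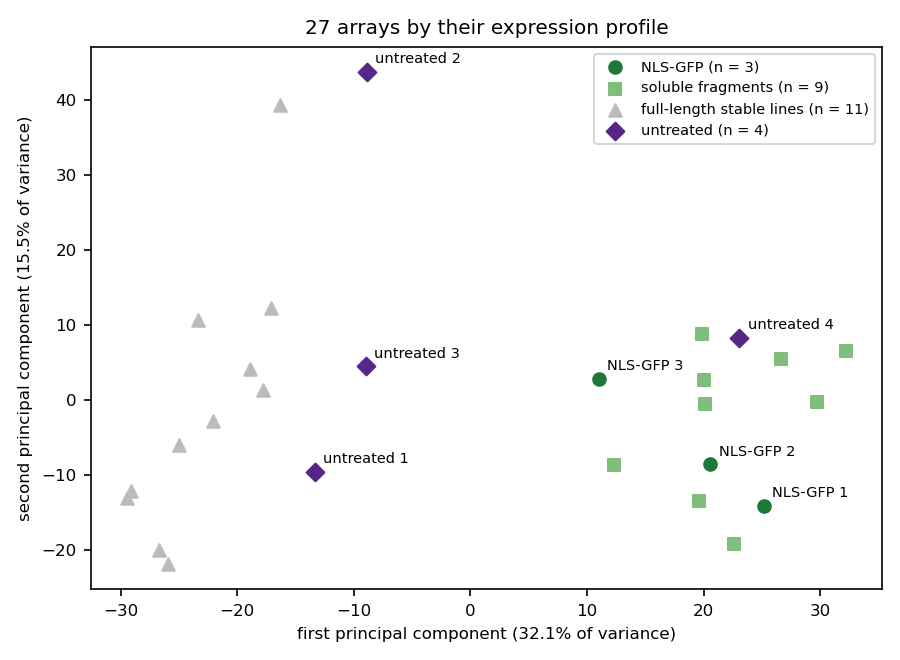
Position of each of the 27 arrays on the first 2 principal components of the normalised log2 intensities, with 1 point for each array and the NLS-GFP and untreated arrays named by replicate. Untreated 4 lies at 23.05 on the horizontal axis, beside the NLS-GFP arrays (11.02 to 25.18) and away from untreated 1 to 3 (−13.33 to −8.904).

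With all 4 untreated arrays, 208 genes passed the threshold, 1.11% of the genes tested. Of these, 77 were higher (0.413%) and 131 lower (0.702%) in NLS-GFP cells, and 18 differed by more than 1 on the log2 scale. Without untreated replicate 4, 734 genes passed (3.93%), with 326 higher (1.75%) and 408 lower (2.19%), and 57 of them differed by more than 1. The 2 sets shared 200 genes, all with the same sign, which is 96.2% of the first set and 27.2% of the second. The NLS-GFP and untreated arrays did not overlap at 147 of the 208 genes, and over all genes they did not overlap at 9.34%. The calls fell almost entirely in bright genes: of the 208 genes, 207 were in the brighter 50% of all genes by mean level. The spread behind the count of 208 was estimated over all 27 arrays of the series. With only the 7 arrays 1 gene passed, and with only 6 arrays, replicate 4 left out, 135 passed. The directions depended on the scaling. With median scaling in place of quantile normalization 7 genes passed, 5 of them higher, and without replicate 4 1908 passed, of which 98.6% were lower, with the median of all genes at −0.105. Directions below are those under quantile normalization.

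Untreated replicate 4 was set against the genes called without it, although it took part in the quantile normalization and in the choice of the brightest probe. These genes were chosen for a gap between NLS-GFP and untreated replicates 1 to 3. A left-out untreated array can therefore lie on the NLS-GFP side of that untreated mean through the choice alone. No other array was placed in this way for comparison. For each of the 734 genes its level was placed on a scale where 0 is the mean of untreated replicates 1 to 3 and 1 is the NLS-GFP mean. Its median position was 0.919. It lay nearer to the NLS-GFP mean at 597 genes (81.3%), and at 326 genes it was at or past that mean. The share was alike among the genes that were higher in NLS-GFP cells (81.0%) and those that were lower (81.6%). At only 28 genes (3.81%) was it at or past the untreated mean on the side away from NLS-GFP, among them FST, IL24, SQLE, ACTA2, COL5A1 and NDN, which are named here after their values were seen.

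**Figure D2:**
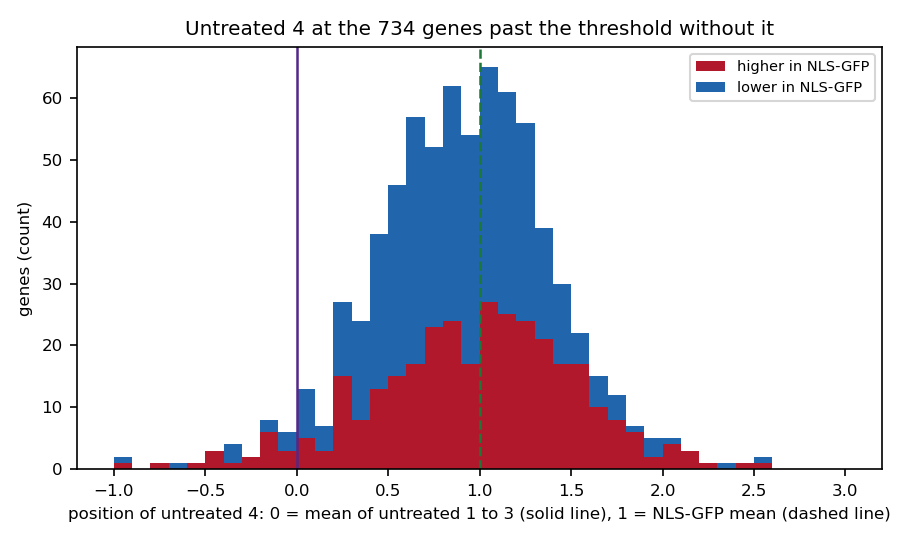
Number of genes (vertical axis) by the position of untreated replicate 4 between the mean of untreated 1 to 3 (0, solid line) and the NLS-GFP mean (1, dashed line), for the 734 genes past the threshold without that array, with genes higher and lower in NLS-GFP cells stacked in 2 colours and 3 genes beyond the axis drawn in the end bins. The distribution has its median at 0.919, close to the NLS-GFP mean.

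The NLS-GFP arrays also differed among themselves. Replicate 3 was the NLS-GFP array nearest to the untreated mean at 159 of the 208 genes (76.4%), against 22 for replicate 1 and 27 for replicate 2. Leaving out NLS-GFP replicate 3 raised the count to 532 genes, whereas 60 genes passed without replicate 1 and 52 without replicate 2.

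The 30 genes described next are the 15 that rose most and the 15 that fell most among those that passed the threshold both with and without untreated replicate 4 and were above background. At 20 of them the NLS-GFP and untreated arrays did not overlap, and at 26 the NLS-GFP arrays did not overlap untreated replicates 1 to 3. Over all genes, the arrays did not overlap at 9.34% and 22.6%. The 30 genes were chosen by the size of their difference, which favours arrays that do not overlap. Untreated replicate 4 was nearer to the NLS-GFP mean at 18 of the 30. The call held with each of the 7 arrays left out in turn at 11 of the 30: CDC14B, PPP3R1, MAGEA1 and FST among the higher genes, and PMEPA1, NFAT5, SBSN, NDN, NXPE3, CNN2 and TMEM44 among the lower. In a fit of only the 7 arrays, none of the 30 kept its call.

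The largest rise was that of CDC14B, a dual-specificity phosphatase of the CDC14 family that acts in the cell cycle. Its level was 12.16, 12.38 and 11.94 on the NLS-GFP arrays, against 9.41, 10.22, 9.16 and 11.50 on the untreated arrays. All NLS-GFP arrays were above all untreated arrays, and the highest untreated array was replicate 4. The difference was 2.09 ± 0.35 (SE), a 4.24-fold rise (adjusted p = 0.00327, limma), and it was 2.56 without untreated replicate 4 (adjusted p = 2.33e-06). The other 2 CDC14B probes differed by only 0.12 and 0.14 and did not pass, so that the rise was seen at 1 of 3 probes.

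PPP3R1, the regulatory B subunit of the phosphatase calcineurin, was at 9.75, 9.08 and 9.04 on the NLS-GFP arrays and at 7.42, 7.43, 7.24 and 8.73 on the untreated arrays. The groups did not overlap, and untreated replicate 4 lay between the other untreated arrays and the NLS-GFP arrays. The difference was 1.59 ± 0.25 with all arrays and 1.93 without replicate 4 (adjusted p = 0.00207 and 8.18e-07, limma).

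FST encodes follistatin, a secreted protein that binds and neutralises activin. Its level was 12.20, 12.56 and 11.95 on the NLS-GFP arrays, against 10.69, 11.23, 11.39 and 11.03 on the untreated arrays. Here untreated replicate 4 lay among the other untreated arrays, and the groups did not overlap. The difference was 1.15 ± 0.19 (adjusted p = 0.00323, limma) and 1.13 without replicate 4, and the second FST probe, at 0.70, also passed.

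MAGEA1 belongs to the cancer-testis antigens, a class of genes normally silent outside the germ line and placenta and reactivated in many tumours. It was at 8.97, 8.94 and 9.09 on the NLS-GFP arrays, against 7.10, 7.15, 7.10 and 8.32 on the untreated arrays. The 3 NLS-GFP arrays lay close together, and untreated replicate 4 was far above the other untreated arrays. The difference was 1.58 ± 0.19 (adjusted p = 0.000186, limma) and 1.88 without replicate 4. Of 19 measured cancer-testis genes, MAGEA1 and SSX2 rose and none fell, and without replicate 4 MAGEA2 fell as well, by 0.55. The calls made 10.5% of the list, and 15.8% without replicate 4, beside 1.11% and 3.93% of all genes. SSX2 was at 9.08, 8.61 and 8.49 on the NLS-GFP arrays, against 7.78, 7.89, 7.82 and 8.13 on the untreated arrays, so that all NLS-GFP arrays were higher. Its difference was 0.82 ± 0.11 (adjusted p = 0.000505, limma). The median over the list was −0.0264, beside 0.00248 over all genes. MAGEA and SSX genes are near-identical copies of each other, and their probes may not tell them apart.

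Among the other genes that rose, HMGA1, an architectural chromatin protein that bends AT-rich DNA, differed by 0.97 and RPL21, a protein of the large ribosomal subunit, by 1.04. At both, untreated replicate 4 lay inside the range of the NLS-GFP arrays (12.14 for HMGA1 and 12.28 for RPL21). The other 2 HMGA1 probes differed the other way, by −0.20 and −0.18, and did not pass. The zinc finger factor ZNF148 rose by 1.33 and MME, the cell-surface peptidase neprilysin, by 1.30, and at both genes untreated replicate 2 was the lowest array. TRAPPC8, which takes part in vesicle tethering, differed by 1.06. PDE5A, the phosphodiesterase that degrades cyclic GMP, was at 9.53 and 9.33 in NLS-GFP replicates 1 and 2 but at 7.57 in replicate 3, below untreated replicates 3 and 4 (7.69 and 7.88). The homeobox gene HOXB8 had the same shape, with 9.13, 9.47 and 7.87 on the NLS-GFP arrays and up to 8.13 on the untreated arrays. DTWD1, CPED1 and IL1RAPL1 differed by 1.02, 0.97 and 0.96.

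IL24, a cytokine of the interleukin-10 family, was at 8.61, 8.56 and 8.51 on the NLS-GFP arrays, against 7.69, 8.20, 7.70 and 6.93 on the untreated arrays. Untreated replicate 4 was the untreated array farthest from the NLS-GFP arrays here. The difference was 0.93 ± 0.21 with all arrays and 0.70 without replicate 4 (adjusted p = 0.0229 and 0.0182, limma).

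The largest fall was that of PMEPA1, a membrane protein that is induced by TGF-beta and limits its signalling. Its level was 7.46, 7.84 and 7.72 on the NLS-GFP arrays, against 9.69, 9.82, 9.001 and 8.104 on the untreated arrays. All NLS-GFP arrays were below all untreated arrays, and untreated replicate 4 was the lowest of the untreated arrays. The difference was −1.48 ± 0.24 (adjusted p = 0.00315, limma) and −1.83 without replicate 4 (adjusted p = 5.64e-07). Of the 3 other PMEPA1 probes, 1 passed in the same direction, and the 3 ranged between −1.38 and 0.10. In the list of 22 TGF-beta targets, PMEPA1 and CCN1 fell and none rose, with a list median of −0.0597. That is 9.09% of the list beside 1.11% of all genes, and 4.55% beside 3.93% without replicate 4. CCN1, a secreted matricellular protein, differed by −0.52 (adjusted p = 0.0294, limma), and without replicate 4 by −0.49, within the 0.5 limit. The other targets on the list, CCN2 among them, did not pass with or without replicate 4.

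The list of cytoskeletal and contractile genes had the most genes past the threshold when all arrays were used. It also holds CCN1, the secreted protein counted on the TGF-beta list. Of 26 measured cytoskeletal and contractile genes, 4 fell (ACTA2, ACTB, CNN2 and CCN1) and none rose, which is 15.4% of the list beside 1.11% of all genes. Without untreated replicate 4, 3 fell (11.5% beside 3.93%, all but CCN1). With median scaling and all arrays, where 7 genes passed in all, none of the list did. With median scaling and replicate 4 left out, 8 of the 26 passed, all lower, among them the same 3 genes. In that fit 1908 genes passed in all, and 98.6% of them were lower. The list median was −0.0837, or −0.0409 without replicate 4, so that most members moved little. Many of these genes are textbook targets of serum response factor and its coactivator MRTF, which is held in the cytoplasm by monomeric actin and which activates genes through the CArG box. Neither SRF nor MRTFA passed the threshold under quantile normalization. With median scaling and replicate 4 left out, SRF passed at −0.83 (adjusted p = 0.00989, limma).

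CNN2, a calponin that binds actin filaments, was at 9.67, 9.73 and 9.96 on the NLS-GFP arrays, against 11.11, 10.85, 10.70 and 10.11 on the untreated arrays. The groups did not overlap. The difference was −0.91 ± 0.15 (adjusted p = 0.00315, limma) and −1.10 without replicate 4, and the second CNN2 probe also passed, at −0.80. Of ACTA2 and CNN2, the members past the threshold that had a RefSeq upstream window, CNN2 held a CArG box, and the 250 bases before its start are shown for that reason, from RefSeq on GRCh38.p14, plus strand, chr19:1026358-1026607, with the box in capitals.
CNN2: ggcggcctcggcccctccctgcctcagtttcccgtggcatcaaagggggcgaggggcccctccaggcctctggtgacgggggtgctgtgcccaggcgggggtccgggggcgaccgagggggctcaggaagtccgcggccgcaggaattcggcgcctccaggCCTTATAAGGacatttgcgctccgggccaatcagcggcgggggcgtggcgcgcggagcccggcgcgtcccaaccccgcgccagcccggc
The box starts 89 bases before the start of the gene. Both strands were searched, and the box reads the same on both here. It occurred in 407 of 35116 RefSeq upstream windows of 250 bases (1.16%), and in a window of 6 of the 22 list members that had one. Members had up to 4 windows each, and many are textbook targets of serum response factor, so that the 1.16% is no background for that count. The other members with a box were ACTG1, ACTG2, ACTN1, SRF and TPM4. None of these passed under quantile normalization, with or without replicate 4. ACTA2 had 2 windows without the box, and a match is a description of the letters only.

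ACTA2, smooth muscle alpha-actin, was at 10.29, 10.29 and 10.73 on the NLS-GFP arrays, against 10.93, 11.50, 10.98 and 11.35 on the untreated arrays. Untreated replicate 4 was among the high arrays here. The difference was −0.75 ± 0.14 (adjusted p = 0.00697, limma) and −0.70 without replicate 4. ACTB, cytoplasmic beta-actin, was at 13.60, 13.67 and 14.02 on the NLS-GFP arrays, against 14.35, 14.35, 14.49 and 14.11 on the untreated arrays. The groups lay close to each other without overlapping. The difference was −0.56 ± 0.10 (adjusted p = 0.00427, limma). Its 2 other probes differed by −0.29 and −0.23 and did not pass, and the actin genes are similar enough in sequence for probes to share signal. ARPC1B, a subunit of the Arp2/3 complex that nucleates branched actin, was outside that list and fell by 0.89 on the log2 scale, with untreated replicate 4 (9.23) inside the NLS-GFP range.

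NFAT5, the transcription factor that answers to hypertonic stress, was at 6.70, 6.78 and 6.59 on the NLS-GFP arrays, against 8.15, 7.82, 8.27 and 7.66 on the untreated arrays. The arrays were separated by a wide gap. The difference was −1.28 ± 0.19 (adjusted p = 0.00133, limma) and −1.39 without replicate 4. A second of its 3 probes passed in the same direction.

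NDN encodes necdin, a member of the MAGE family that restrains growth in neurons. It was at 6.39, 6.38 and 6.53 on the NLS-GFP arrays, against 7.24, 7.79, 7.13 and 7.40 on the untreated arrays. Replicate 4 lay among the other untreated arrays, and the difference was −0.95 ± 0.11 with all arrays and −0.95 without it (adjusted p = 5.87e-05 and 1.86e-05, limma). Among the named genes NDN had the smallest adjusted p with all arrays.

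UNG, the uracil-DNA glycosylase that starts base excision repair, differed by −1.09, but its NLS-GFP arrays were at 8.58, 8.79 and 10.17 and its untreated arrays at 10.58, 10.49, 10.52 and 9.49. NLS-GFP replicate 3 thus lay near untreated replicates 1 to 3, and untreated replicate 4 lay below it. TRMT2B, a tRNA methyltransferase, differed by −1.05, and its untreated replicate 4 (6.76) lay inside the range of the NLS-GFP arrays, with the other untreated arrays at 8.05 to 8.19. SSR3, a subunit of the translocon-associated protein complex, differed by −0.89 and had untreated replicate 4 inside the NLS-GFP range. NXPE3 was at 6.43, 6.36 and 6.39 on the NLS-GFP arrays, against 7.58, 7.65, 7.46 and 6.68 on the untreated arrays, a difference of −0.95. WRAP53, needed to bring telomerase to Cajal bodies, differed by −0.95, SBSN by −1.0, TMEM44 by −0.89, MYDGF by −0.95 and TAGLN3 by −1.15. PDIA3P1, at −1.19, is a pseudogene of PDIA3, and its probe may share signal with the parent gene.

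**Figure D3:**
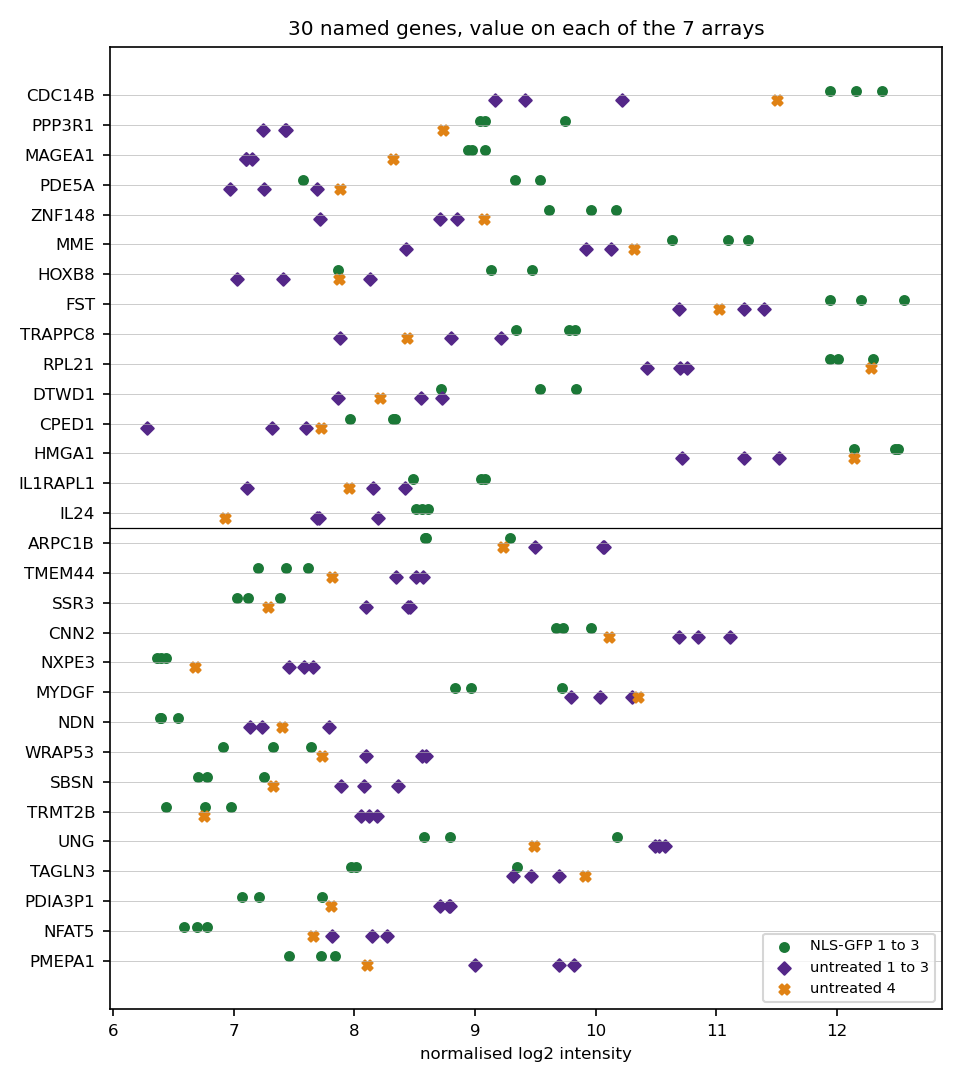
Normalised log2 intensity (horizontal axis) of the 30 named genes on each of the 7 arrays, with the 15 higher genes above the line and the 15 lower genes below it, and with untreated replicate 4 marked on its own. At MAGEA1, PPP3R1, TRMT2B and UNG, untreated 4 lies away from untreated 1 to 3 on the side of the NLS-GFP arrays, while at FST and NDN it lies among them.

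Of the 30 genes, 15 had at least 1 further probe, and at 6 of these (MAGEA1, FST, PMEPA1, NFAT5, CNN2 and TMEM44) a further probe passed in the same direction. At the other 9, CDC14B, HMGA1, MME, PDE5A and UNG among them, no further probe passed.

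Genes of cellular responses to foreign DNA were read against the 1.11% of all genes past the threshold with all arrays and the 3.93% without replicate 4. Of 37 measured interferon-stimulated genes, none rose and only LGALS3BP, a secreted glycoprotein, fell (2.7%), with a difference of −0.72 ± 0.12 (adjusted p = 0.00315, limma). Without untreated replicate 4, IFI27 and MX1 rose, by 1.08 and 0.52, and LGALS3BP fell by 0.77 on the log2 scale (8.11% of the list). IFI27 was at 8.76, 8.46 and 8.05 on the NLS-GFP arrays, against 7.29, 7.70, 7.04 and 9.69 on the untreated arrays, so that untreated replicate 4 was the highest of the 7. None of 25 nucleic acid sensing genes passed with all arrays. Without replicate 4, CGAS, the cytosolic DNA sensor, and DDX41 were lower (8.0% of the list), DDX41 by 0.57. CGAS was at 6.15, 6.11 and 6.29 on the NLS-GFP arrays, against 7.11, 6.99, 7.16 and 6.02 on the untreated arrays. Of the NLS-GFP arrays 1 was above background and untreated replicate 4 was not, so that the size of the CGAS difference (−0.90 without replicate 4) rests on levels near background. No antigen presentation gene of 20 passed in either fit. Of 33 NF-kB target and cytokine genes, IL24 rose in both fits, and SOD2 rose by 0.85 where replicate 4 was left out. The calls made 3.03% of that list with all arrays and 6.06% without replicate 4.

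Of 19 cholesterol synthesis genes, SQLE and IDI1 rose in both fits and none fell, with a list median of 0.0901 (0.15 without replicate 4). In each fit that is 10.5% of the list, beside 1.11% of all genes, or 3.93% without replicate 4. With replicate 4 left out and median scaling, neither SQLE (0.04) nor IDI1 (0.33) passed. SQLE, squalene epoxidase, was at 11.11, 10.98 and 10.61 on the NLS-GFP arrays, against 10.04, 10.50, 10.50 and 10.29 on the untreated arrays, and the groups did not overlap. Its difference was 0.57 ± 0.11 (adjusted p = 0.00617, limma). IDI1, which isomerises isopentenyl diphosphate, differed by 0.56 ± 0.14 (adjusted p = 0.0448, limma). NPC1, which exports cholesterol from lysosomes, was at 12.06, 11.93 and 11.26 on the NLS-GFP arrays, against 10.75, 11.10, 10.64 and 11.34 on the untreated arrays, with NLS-GFP replicate 3 below untreated replicate 4. It rose by 0.79 ± 0.14 (adjusted p = 0.00492, limma), and of 28 lysosome and autophagy genes it was the only one past the threshold, joined without replicate 4 by CTSZ and OPTN. The calls made 3.57% of that list with all arrays and 10.7% without replicate 4. None of NPC1, CTSZ and OPTN passed with median scaling and replicate 4 left out (NPC1 at 0.42). None of 22 endocytosis genes passed with all arrays. Without replicate 4, RAB5C rose and DNM1 fell (9.09% of the list, beside 3.93% of all genes).

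Of 29 nuclear import genes, IPO7, an importin that carries ribosomal proteins and histones, rose by 0.77 ± 0.19 (adjusted p = 0.0451, limma). It was at 7.60, 7.28 and 7.31 on the NLS-GFP arrays, against 6.48, 6.17, 6.50 and 7.34 on the untreated arrays. Untreated replicate 4 was thus inside the NLS-GFP range. Without it, KPNA6, an importin alpha, also rose, by 0.61, and RANGAP1, which activates the GTPase of Ran, fell by 0.86 on the log2 scale. The calls made 3.45% of the list with all arrays and 10.3% without replicate 4, beside 1.11% and 3.93% of all genes. No gene of 18 lamina and inner nuclear membrane genes passed with all arrays, and without replicate 4 BANF1 rose and LEMD2 fell (11.1% of the list).

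Stress lists held 1 gene or none each with all arrays. DDIT3, the transcription factor CHOP, was the only gene of 31 in the integrated stress response to pass, with a rise of 0.71. That is 3.23% of the list, beside 1.11% of all genes. TXN, thioredoxin, was the only gene of 23 among NRF2 targets, at 0.61 (4.35% of the list). XPC, which recognises DNA damage in nucleotide excision repair, was the only one of 24 p53 targets (4.17% of the list). It was at 10.51, 10.45 and 10.56 on the NLS-GFP arrays, against 9.80, 9.91, 9.70 and 10.01 on the untreated arrays, so that the groups did not overlap and replicate 4 lay nearer to the untreated arrays. The difference was 0.65 ± 0.08 (adjusted p = 0.000186, limma). No gene of the heat shock (25), unfolded protein response (20), apoptosis (24) or immediate early (23) lists passed with all arrays. Without replicate 4, HSPE1 and HSF1 rose and BAG3 and FKBP4 fell on the heat shock list. CALR rose and SDF2L1 and CRELD2 fell on the unfolded protein response list. BCL2L1 and CASP1 rose and CASP8 and BIRC5 fell on the apoptosis list, and JUN rose among immediate early genes. The calls made 4.35% (immediate early) to 16.7% (apoptosis) of these lists, beside 3.93% of all genes. Integrated stress response calls were then DDIT3, higher, and MTHFD2 and SLC3A2, lower (9.68%). TXN (4.35%) and XPC (4.17%), both higher, were again the only calls on the NRF2 and p53 lists.

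Several lists held more genes past the threshold when untreated replicate 4 was left out. In oxidative phosphorylation, none of 22 genes passed with all arrays and 6 rose without replicate 4: NDUFA1, NDUFB3, UQCRB, COX7A2, COX7C and ATP5PO, by 0.62 to 1.11. That is 27.3% of the list, beside 3.93% of all genes. UQCRB, a subunit of complex III, was at 8.98, 8.74 and 8.45 on the NLS-GFP arrays, against 7.68, 7.47, 7.69 and 9.32 on the untreated arrays, so that replicate 4 was above all NLS-GFP arrays. With replicate 4 left out and median scaling, where nearly all calls over all genes were lower, none of these 6 genes passed, with UQCRB at 0.74 (adjusted p = 0.083, limma), and 6 other genes of the list were lower. Among 30 DNA replication genes, none passed with all arrays and MCM7, CDT1, RRM2 and CCNE1 fell without replicate 4, by 0.51 to 0.79 on the log2 scale. That is 13.3% of the list, beside 3.93% of all genes. Among 38 extracellular matrix genes, COL5A1 fell with all arrays (−0.88), and without replicate 4 COL4A1 fell too, COL1A2 was at least 1.33-fold lower and below background on the NLS-GFP arrays, and BGN and LAMA4 rose. The calls made 2.63% of that list with all arrays and 13.2% without replicate 4, beside 1.11% and 3.93% of all genes. The bound for COL1A2 sets the background level of the NLS-GFP arrays against the mean of untreated replicates 1 to 3. Among 27 matrix proteases and their inhibitors, ADAM19 fell with all arrays (−0.88), at 10.77, 10.61 and 10.29 on the NLS-GFP arrays, against 11.50, 11.74, 11.19 and 11.32 on the untreated arrays. Without replicate 4, MMP9 and PLAU, the urokinase that activates plasminogen, were also lower (−1.06 and −0.74) and the inhibitor TIMP2 was higher (0.52), which makes 14.8% of the list beside 3.93% of all genes.

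Over all 32 lists, 776 different genes were measured, of which 12 rose and 9 fell with all arrays (2.71%), and 37 rose and 36 fell without replicate 4 (9.41%). Both shares stand beside 1.11% and 3.93% over all genes, and 80.8% of the listed genes were in the brighter 50% of all genes, where nearly all calls fell. Of the lists, 16 held no gene past the threshold with all arrays, and 3 held none without replicate 4 (antigen presentation, proteasome and ubiquitin, and mRNA decay and splicing). The list medians lay between −0.147 and 0.0901 with all arrays, and between −0.125 and 0.15 without replicate 4.

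**Figure D4:**
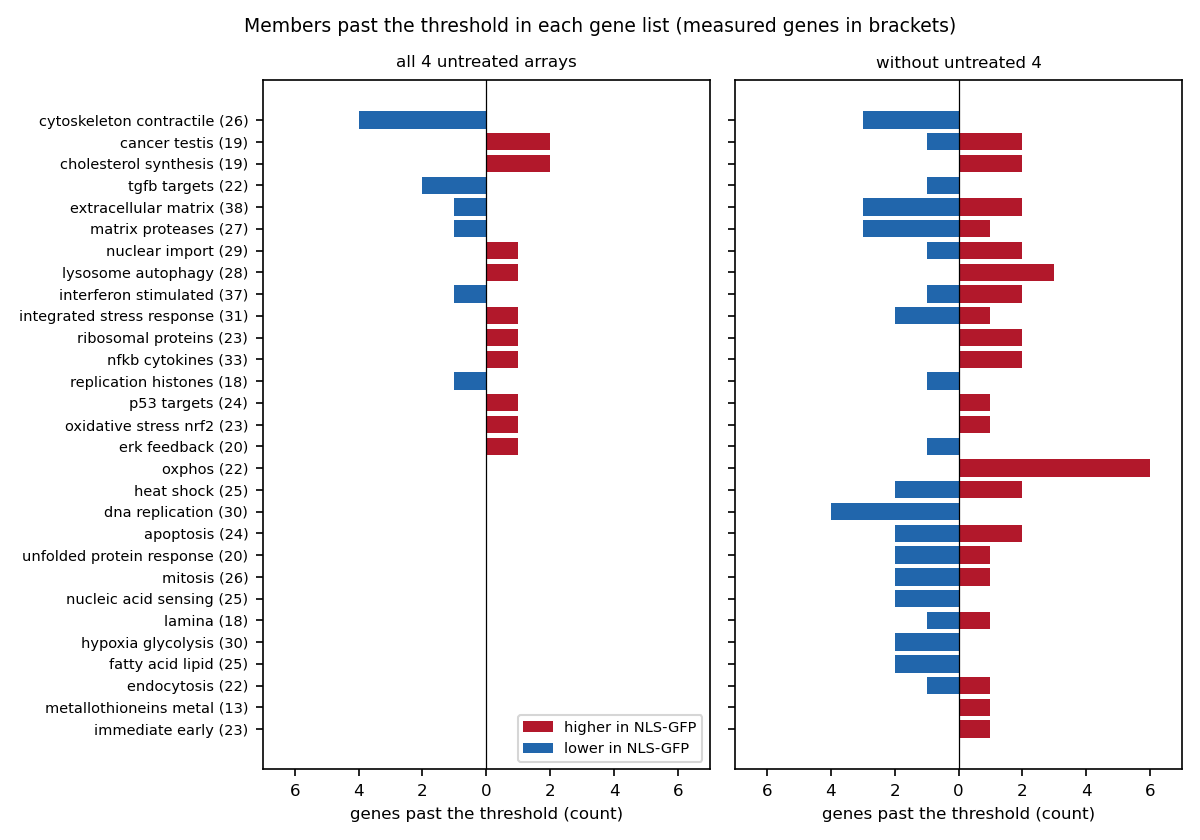
Number of genes past the threshold on each gene list (bars right of the zero line for genes higher in NLS-GFP cells, left for genes lower), with all 4 untreated arrays in the left panel and without untreated replicate 4 in the right panel. The number of measured genes stands in brackets, and the 3 lists with no gene past the threshold in either panel are left out. The cytoskeletal list leads on the left with 4 lower genes, and oxidative phosphorylation on the right with 6 higher genes, none of which passed with median scaling.

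The genes that passed only without untreated replicate 4 included some of the widest gaps between NLS-GFP cells and untreated replicates 1 to 3. TAF15, an RNA-binding protein that takes part in transcription, was at 10.70, 9.89 and 10.28 on the NLS-GFP arrays, against 7.59, 8.73, 7.19 and 10.27 on the untreated arrays. Untreated replicate 4 thus lay in the middle of the NLS-GFP arrays. The difference was 1.85 with all arrays (adjusted p = 0.063) and 2.45 without replicate 4 (adjusted p = 0.000627, limma). CLEC2D, a C-type lectin-like ligand of natural killer cells, was at 8.53, 8.44 and 8.30 on the NLS-GFP arrays, against 6.83, 6.48, 6.65 and 9.26 on the untreated arrays, with replicate 4 the highest of the 7. RPL26, a ribosomal protein, was at 12.40, 12.27 and 11.90 on the NLS-GFP arrays, against 10.69, 10.65, 10.91 and 12.46 on the untreated arrays. Replicate 4 was again above every NLS-GFP array. ERGIC1 and APP, the amyloid precursor protein, differed by 1.5 and 1.9 without replicate 4. In the other direction SLC3A2, the heavy chain of the large amino acid transporters, was at 7.74, 7.77 and 8.69 on the NLS-GFP arrays, against 9.04, 9.22, 9.24 and 8.05 on the untreated arrays. NBPF9, CLMP, NUP43 and MMP9 differed by −1.47, −1.26, −1.03 and −1.06 without replicate 4. NBPF9 belongs to a family of near-identical copies, and RPL21 and RPL26 have many pseudogenes, so that their probes are uncertain.

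At some genes untreated replicate 4 differed from all the other 6 arrays. MAGEC2, another cancer-testis gene, was at 6.56, 6.45 and 6.54 on the NLS-GFP arrays, against 6.39, 6.42, 6.30 and 8.92 on the untreated arrays, so that replicate 4 alone was high. MMP9, the gelatinase B that degrades basement membrane collagen, was at 7.84, 7.80 and 7.50 on the NLS-GFP arrays, against 8.69, 9.41, 8.21 and 6.05 on the untreated arrays, where replicate 4 was not above background. CXCL8, the neutrophil chemokine, was at 11.65, 11.50 and 11.41 on the NLS-GFP arrays, against 12.30, 10.92, 11.45 and 9.49 on the untreated arrays. Replicate 4 was the lowest array at both genes. SCIN, an actin-severing protein, was at 7.61, 7.72 and 7.50 on the NLS-GFP arrays, against 7.91, 7.94, 8.10 and 6.14 on the untreated arrays. MSX1 and VGF were 1.91 and 1.74 lower, and SNAR-A1 was 2.68 higher, in untreated replicate 4 than the median of the other untreated arrays.

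The NLS-GFP arrays were also set against the cells with the soluble fragments of NET29, NET39 and NET47, which the sample titles describe as transfected. No untreated array enters the means of this contrast, but the spread was estimated over all 27 arrays, untreated replicate 4 included. Against the mean of the 3 fragments, 35 genes passed the threshold (0.188%), with 26 higher in NLS-GFP cells (0.139%) and 9 lower (0.0482%), and 56 passed when untreated replicate 4 was left out of the fit. This contrast shares the NLS-GFP arrays with the first one, so that the values are set side by side only. Of the 30 named genes, MAGEA1 and NDN passed against the fragments as well. The genes that passed in all 3 contrasts were MAGEA1, NDN, GJB2, MYEOV, NPTX1 and PELI2.

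MAGEA1 averaged 9.0 ± 0.08 in NLS-GFP cells, 6.54 ± 0.25 with the NET29 fragment, 8.08 ± 0.07 with the NET39 fragment, 6.30 ± 0.19 with the NET47 fragment and 7.42 ± 0.60 in untreated cells (SD, n = 3 each and 4 untreated). It was thus higher in NLS-GFP cells than in every other of these groups, by 2.03 against the mean of the fragments (adjusted p = 2.39e-07, limma). NDN averaged 6.44 ± 0.08 in NLS-GFP cells, 6.02 ± 0.08 with the NET29 fragment, 8.87 ± 0.08 with the NET39 fragment, 6.35 ± 0.03 with the NET47 fragment and 7.39 ± 0.29 in untreated cells. Its difference of −0.64 from the fragments (adjusted p = 0.00103, limma) came with a high level under the NET39 fragment, while the other 2 fragments were below NLS-GFP. CDC14B averaged 12.16 ± 0.22 in NLS-GFP cells and 11.35 ± 0.21, 11.57 ± 0.15 and 12.05 ± 0.34 with the NET29, NET39 and NET47 fragments, and it did not pass against them (0.50, adjusted p = 0.668). CNN2 averaged 9.79 ± 0.15 in NLS-GFP cells and 9.93 ± 0.11, 9.90 ± 0.12 and 9.81 ± 0.22 with the fragments (−0.09, adjusted p = 0.895). SSX2, at 8.73 ± 0.31 in NLS-GFP cells, was at 8.75 ± 0.11, 8.90 ± 0.04 and 8.80 ± 0.16 with the fragments. At CNN2 and SSX2 the fragment groups lay near NLS-GFP. At CDC14B, all arrays of the NET29 and NET39 fragments were below all NLS-GFP arrays. A p above the threshold does not show that the levels were the same.

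The largest differences between NLS-GFP cells and the fragments, after MAGEA1, were those of MDK and EEF1A2, named here after their values were seen. MDK, the heparin-binding growth factor midkine, was at 9.10, 9.22 and 8.82 on the NLS-GFP arrays and averaged 7.07, 8.74 and 6.24 with the NET29, NET39 and NET47 fragments, a difference of 1.70 ± 0.11 (adjusted p = 7.11e-09, limma). EEF1A2, a tissue-restricted translation elongation factor, was at 11.97, 12.05 and 12.47 on the NLS-GFP arrays and averaged 11.98, 11.70 and 7.75 with the fragments. Its difference of 1.69 therefore came with a low level under the NET47 fragment. Against untreated cells, MDK and EEF1A2 differed by 0.44 and 0.16 and did not pass.

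**Figure D5:**
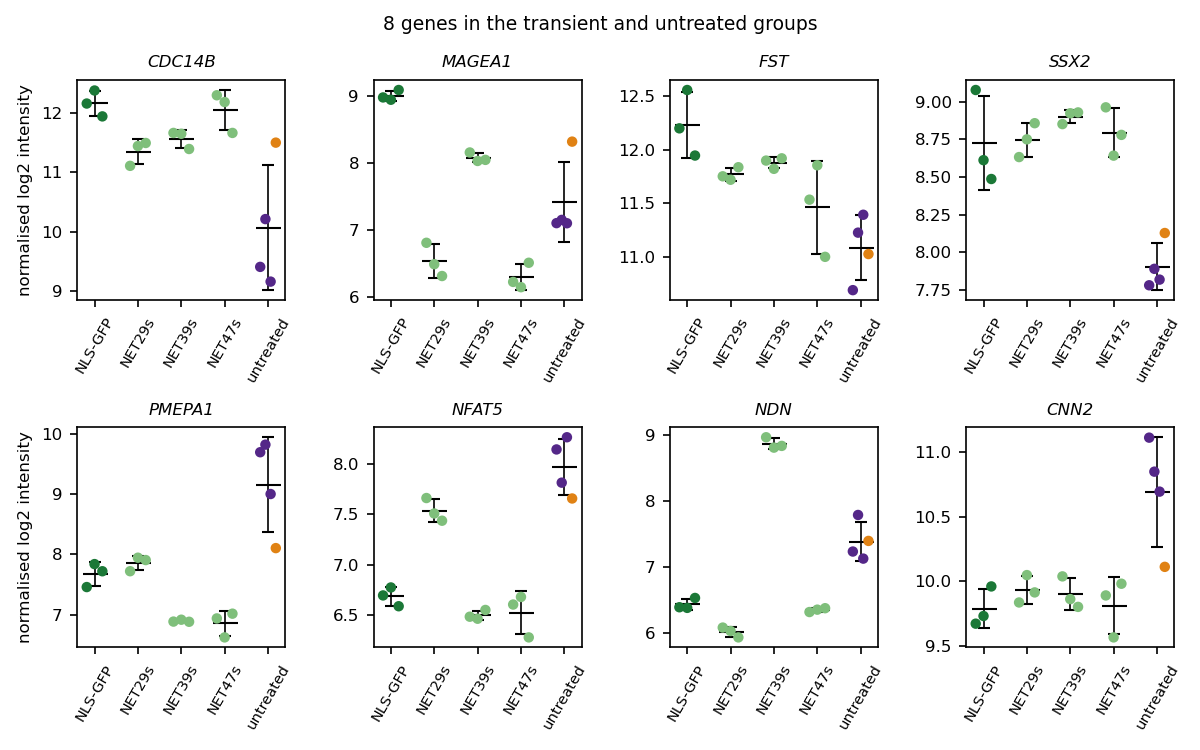
Normalised log2 intensity of 8 named genes on each array of NLS-GFP cells, of cells with the soluble fragments of NET29, NET39 and NET47 (NET29s, NET39s, NET47s) and of untreated cells (replicate 4 in orange), with the mean and SD of each group. CDC14B, SSX2, NFAT5 and CNN2 lie apart from untreated replicates 1 to 3 in NLS-GFP cells, whereas MAGEA1 is highest in NLS-GFP cells (9.0).

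The genes of the 3 nuclear envelope proteins themselves did not pass between NLS-GFP and untreated cells. TMEM120A (NET29) averaged 6.79 ± 0.12 in NLS-GFP cells and 6.93 ± 0.27 in untreated cells, a difference of −0.13 (adjusted p = 0.664, limma). PLPP7 (NET39) differed by −0.15 (adjusted p = 0.323) and was above background on 1 of 3 NLS-GFP arrays and 3 of 4 untreated arrays. TM7SF2 (NET47) averaged 6.74 ± 0.23 in NLS-GFP cells and 6.55 ± 0.08 in untreated cells (adjusted p = 0.392, limma).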

How the data were processed

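RNA of 27 HT1080 samples was hybridized to Illumina HumanHT-12 v3 arrays, and the 7 arrays of NLS-GFP and untreated cells are reported here. The authors deposited probe intensities that were not normalised, and a table of quantile-normalised log2 values for the same arrays (deposited median 5.88), used here as an alternative. Intensities were corrected with normexp (offset 50), quantile normalised over 27 arrays and log2 transformed, and 8 group means were fitted with limma 3.58.1 in R 4.3.3 (19 residual degrees of freedom). Benjamini-Hochberg adjustment ran over 48803 probes. Of these, 27577 carried 1 gene symbol, 13 several and 21213 none. A gene is its brightest probe on average. Background is the 95th percentile of 612 probes for olfactory, taste, keratin-associated and defensin genes. The array number limits precision. Per the study's methods the samples are biological replicates, but no label ties a replicate to a separate culture, so that p-values may measure a partly technical spread. Same-numbered samples deviated together at correlations of 0.193, 0.0179 and −0.125, and the numbers were not taken to pair them.

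The named genes are the 15 largest rises and 15 largest falls past the threshold in both fits, the 5 largest each way past it only without untreated replicate 4, the 5 genes at which that array was farthest above and the 5 farthest below the other untreated arrays, leading members of the gene lists, and the 3 NET genes. Members and lists were chosen with earlier results of these data known. The alternatives were other background corrections, scalings, filters, fits and left-out arrays. Sequences come from RefSeq (GRCh38.p14).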

Additional observations from a re-analysis of the deposited data

Results flagged for a closer look

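At 8 of the 49 named genes tested, 1 of the 4 untreated arrays lay far from the other 3, and in each case it was replicate 4. The gap to the nearest untreated array, divided by the range of the 4 arrays, was 0.959 for MAGEA1, 0.875 for PPP3R1, 0.873 for CLEC2D and 0.856 for RPL26, with replicate 4 highest. It was 0.923 for UNG, 0.919 for PDIA3P1, 0.907 for TRMT2B and 0.83 for SLC3A2, with replicate 4 lowest. At all 8 genes replicate 4 lay on the side of the NLS-GFP arrays. Chance marks about 1 in 20 groups in this way, and the named genes were partly chosen by the level of replicate 4. Over 9200 genes above background on the 4 untreated arrays, replicate 4 stood apart at 2.61% and replicate 2 at 2.36%, against 0.891% for replicate 1 and 0.272% for replicate 3.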

How the results depend on the processing

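The count of 208 genes ranged between 52 and 734 with 1 array left out in turn: 60, 52 and 532 without NLS-GFP replicates 1, 2 and 3, and 217, 113, 135 and 734 without untreated replicates 1 to 4. It was 345 with a normexp offset of 16, 7 with median scaling, 530 with array weights, 441 by the moderated F test and 133 when both arrays that stood apart on the second component, untreated replicate 2 and replicate 3 of the full-length NET47 line, were left out. With only the 7 arrays it was 1 (MARCHF6), where 2189 genes had an unadjusted p under 0.05. The split between directions also moved: 63.0% of calls were lower, but 41.4% without both arrays, 42.5% without untreated replicate 2, 52.4% by the F test and 28.6% with median scaling. With the replicate number as a block, the count was 355.

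Without untreated replicate 4, alternatives added after seeing the data gave 1908 genes with median scaling, of which 98.6% were lower (the median of all genes moved to −0.105), and 135 with only 6 arrays; cyclic loess gave 748, of which 46.3% were lower. Leaving out a further array gave 443 to 1148 genes. Against the soluble fragments, the 35 genes became 59 with the offset of 16, 8 with median scaling, 61 with array weights, 111 by the F test and 12 to 140 with 1 NLS-GFP array left out, and 47 with the block. Leaving out 1 untreated array, which enters only the estimate of the spread, gave 34 to 56 (56 without replicate 4; added after seeing the data). The fit on 7 arrays could not give this contrast. The causes were not tested.

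For the 49 named genes, 703 of 931 values stayed on the same side of the threshold, 174 fell below it and 52 passed it. MMP9, at −0.38 with all arrays and −1.06 without untreated replicate 4, reversed to 0.06 without untreated replicate 2 and also to 0.06 without both arrays that stood apart. The 30 leading genes kept their calls in 4 cases with median scaling (CDC14B, PPP3R1, MAGEA1 and NDN) and in none with 7 arrays, with no sign reversed.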
